A study of Homo sapiens with 4 samples.

Results

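The transcripts described here are 10 genes of the YAP and TEAD module: the coactivators YAP1 and WWTR1 (which encodes TAZ), the DNA-binding partners TEAD1, TEAD2, TEAD3 and TEAD4, and the core targets CCN1, CCN2, ANKRD1 and AMOTL2. They were taken by name from the 22465 genes that have a row with a single symbol, and each has exactly 1 such row, so no choice between rows was needed. The RNA came from the human liver cancer line MHCC-LM3, a hepatocellular carcinoma line known for its metastatic behaviour. For 24 h the cells received either DMSO, the solvent, or zerumbone at 50 µM, a sesquiterpene found in ginger, and each of the 2 groups holds 2 whole-transcript arrays. Both groups are the same line in the same medium with serum, and the labels do not state whether replicate arrays stem from different cultures. The p-values therefore rest on a spread between replicates that may be purely technical.

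YAP and TAZ are coactivators without a DNA-binding domain of their own. When the Hippo kinases MST and LATS phosphorylate them they are held in the cytoplasm or degraded, and when they are not phosphorylated they enter the nucleus and bind TEAD factors at target genes. In the liver, loss of Hippo control over YAP is known to enlarge the organ and to cause tumours in mice. The array measures transcripts, so neither phosphorylation nor the location of YAP was measured.

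Values are the authors' log2 expression values, and differences are zerumbone minus DMSO on that scale. "Rose" and "fell" are used for genes with an adjusted p under 0.05 in limma, a moderated linear model fitted here to all genes, with Benjamini-Hochberg adjustment over all of them. Background level means that a gene lay, on both arrays of a group, under the 95th percentile of 23 rows of probes that match no human sequence. That percentile was 4.54 and 5.10 on DMSO replicates 1 and 2, and 4.74 and 5.03 on zerumbone replicates 1 and 2. The number of arrays limits the precision.

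Of the 10 genes, 5 fell, 3 rose and 2 did not pass. Of all genes tested, 36.0% passed the same threshold, 18.4% higher and 17.7% lower under zerumbone, and among the 11487 genes not at background level in both groups 63.7% passed, 30.7% higher and 33.0% lower. None of the 10 was at background level in both groups, so the second share is the nearer comparison, and the count by itself does not set these genes apart. Both zerumbone values lay beyond both DMSO values for 8 of the 10, as they did for 69.9% of all genes. That share was not computed for the genes not at background level in both groups. The median difference of the 10 was -0.22, against 0.0673 for all genes tested. It was 0.0133 over the genes that reached the background percentile on at least 2 arrays. The split of all called genes depends on scaling, with 51.0% higher as deposited and 41.0% higher after centring each array on its median over all transcript clusters. None of the 8 calls among the 10 genes changed under that centring.

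**Figure D1:**
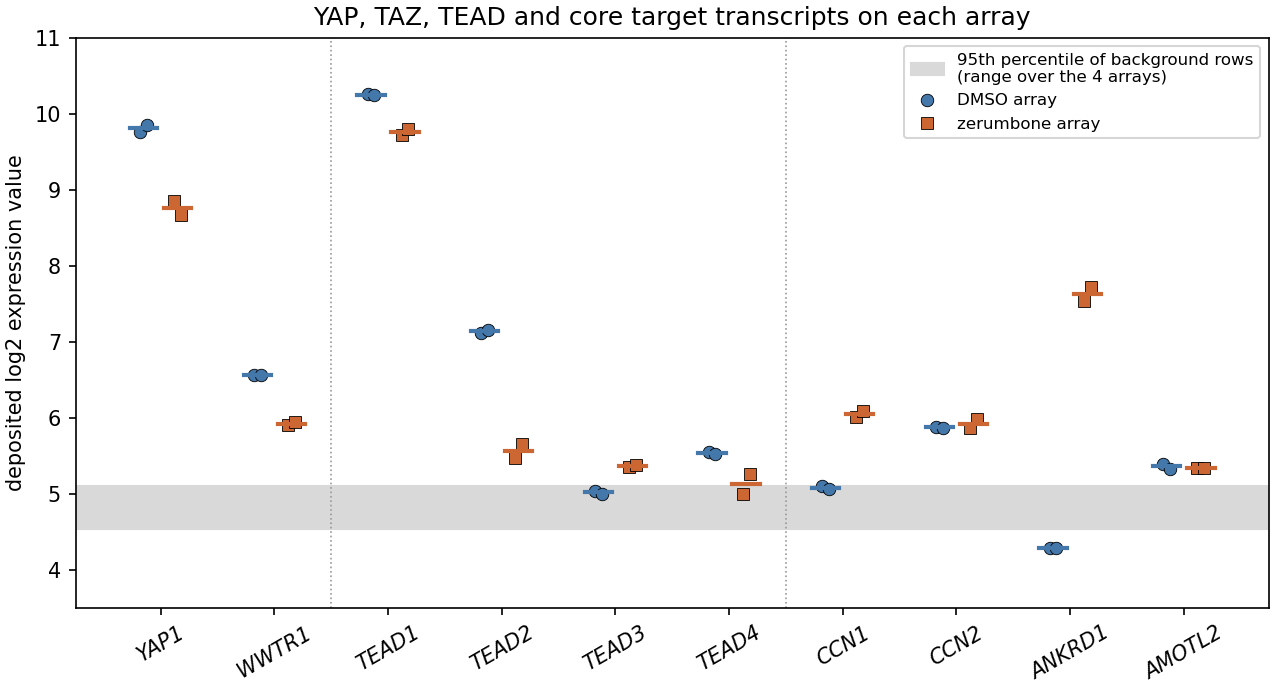
Deposited log2 values of the 10 genes (vertical axis) on each DMSO array (circles) and each zerumbone array (squares), with the mean of each group as a bar; the grey band is the range over the arrays of the 95th percentile of the background rows, 4.54 to 5.10. YAP1 and TEAD2 are lower and ANKRD1 is higher under zerumbone with wide gaps, whereas the groups overlap for CCN2 and AMOTL2.

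Both coactivators fell. YAP1 was at 9.77 and 9.85 on the DMSO arrays and at 8.85 and 8.67 on the zerumbone arrays. The zerumbone values were both lower than either DMSO value, with group means of 9.81 ± 0.058 (SD, n = 2) and 8.76 ± 0.128 (SD, n = 2). The difference was -1.05 with a standard error of 0.087 and a 95% interval from -1.27 to -0.82, a 2.07-fold fall with an adjusted p of 0.000723 in limma. WWTR1 was at 6.57 on both DMSO arrays and at 5.90 and 5.95 on the zerumbone arrays. Its groups did not overlap either, and it fell by 0.64 on the log2 scale (standard error 0.061, adjusted p 0.00111 in limma), a 1.56-fold change. YAP1 thus moved by -0.40 relative to WWTR1 on the same arrays, and this within-array difference did not overlap between the groups. With 2 arrays against 2, an exact two-sided permutation test of a single such value cannot give a p under 0.333.

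The TEAD genes, whose products bind the same DNA element and recruit YAP or TAZ, did not move alike. TEAD2, the member best known from early embryonic and neural tissue in mice, stood at 7.12 and 7.16 under DMSO and at 5.48 and 5.66 under zerumbone. All zerumbone values were far below the DMSO values, and the difference of -1.57 (standard error 0.084, 95% interval from -1.79 to -1.36) was a 2.98-fold fall with an adjusted p of 0.000187 in limma. TEAD1, a broadly expressed member, was at 10.26 and 10.24 under DMSO and at 9.73 and 9.80 under zerumbone. It fell by 0.49 (standard error 0.064, adjusted p 0.00367 in limma) with no overlap between groups, a 1.40-fold change. Relative to TEAD1 on the same arrays, TEAD2 moved by -1.09, and the groups did not overlap in this within-array difference.

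TEAD4, a factor needed for the trophectoderm of the mouse embryo, was at 5.56 and 5.53 under DMSO and at 5.00 and 5.27 under zerumbone. Both zerumbone values were lower, but they differed from each other by more than the DMSO values did. The zerumbone values also lay close above the background percentiles of their arrays, 4.74 and 5.03, so the size of the fall is not well measured. The difference was -0.41 (standard error 0.105, adjusted p 0.0364 in limma). The call was lost without DMSO replicate 1 (adjusted p 0.167), DMSO replicate 2 (0.150) or zerumbone replicate 1 (0.0590), and with adjustment over all 67528 transcript clusters (0.0974). Relative to TEAD1 it moved by 0.079, with groups that overlapped, so the arrays did not separate the changes of TEAD1 and TEAD4.

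TEAD3, which is abundant in placenta, went the other way. The DMSO arrays gave 5.04 and 5.01 and the zerumbone arrays 5.36 and 5.38, and both zerumbone values were higher. The difference of 0.35 (standard error 0.061) had an adjusted p of 0.00975 in limma, and 1 of the 2 DMSO values was under the background percentile, so the size of the rise is not well measured. The adjusted p was 0.0673 without DMSO replicate 1, 0.0821 without DMSO replicate 2 and 0.0518 over all transcript clusters, each of which ended the call. The background rows were themselves higher under zerumbone by a median of 0.0785, with 22 of 23 higher, and their part in this small rise was not tested.

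**Figure D2:**
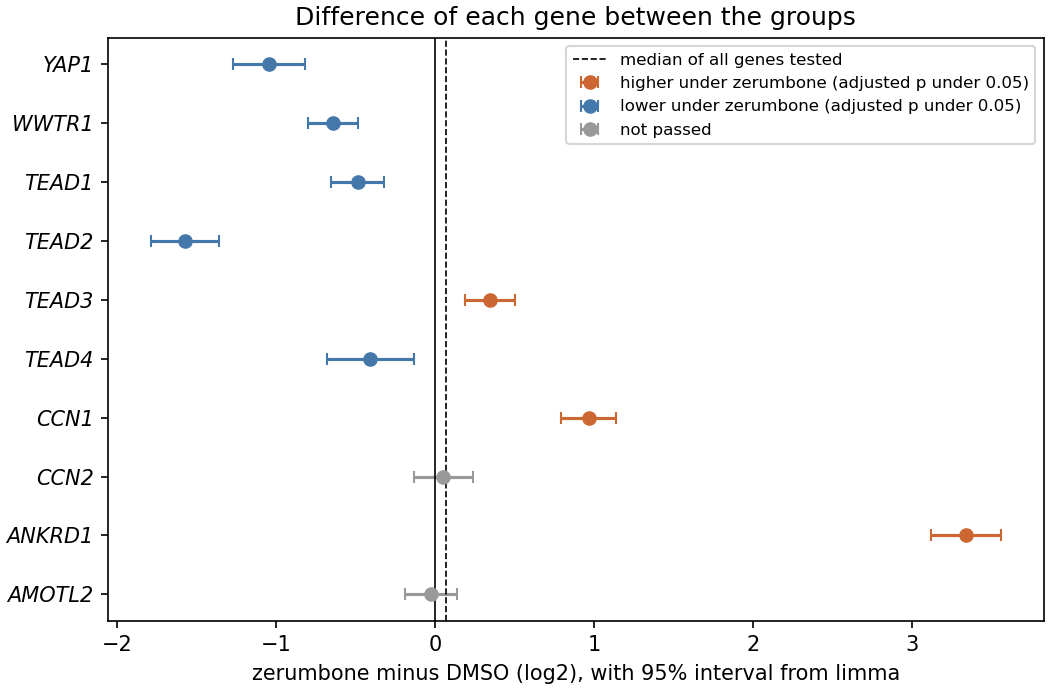
Zerumbone minus DMSO for each gene on the log2 scale (horizontal axis), with its 95% interval from limma; the dashed line is the median of all genes tested, 0.0673. The intervals of YAP1, WWTR1, TEAD1, TEAD2 and TEAD4 lie below 0, those of TEAD3, CCN1 and ANKRD1 above 0, and those of CCN2 and AMOTL2 include 0.

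The 4 core targets are genes whose transcripts are widely used as readouts of YAP and TAZ activity. None of them fell: 2 rose and 2 did not pass. ANKRD1, a nuclear and sarcomeric ankyrin repeat protein that is also induced by stretch and injury of muscle, had the largest difference of the 10 genes. It was at 4.29 on both DMSO arrays, which is background level, and at 7.54 and 7.73 on the zerumbone arrays. The groups lay far apart. The measured means were 4.29 ± 0.0026 (SD, n = 2) and 7.63 ± 0.135 (SD, n = 2), with an adjusted p of 4.41e-05 in limma. Because the DMSO level is only bounded, the rise is given as at least 7.03-fold, with the background percentile of each DMSO array in place of the dimmer value.

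CCN1 (formerly CYR61), a secreted matrix-associated protein that binds integrins, was at 5.10 and 5.07 under DMSO and at 6.01 and 6.10 under zerumbone. Both zerumbone values were higher, and the rise of 0.97 (standard error 0.067, 95% interval from 0.79 to 1.14) had an adjusted p of 0.000405 in limma. Only 1 of the 2 DMSO values was above the background percentile, so the size of this rise, interval included, is not well measured. CCN2 (formerly CTGF), its secreted paralog with a role in scarring, was at 5.88 and 5.87 under DMSO and at 5.86 and 5.99 under zerumbone, and the groups overlapped. Its difference was 0.051 with a 95% interval from -0.13 to 0.24 and an adjusted p of 0.624 in limma.

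AMOTL2, an angiomotin family protein that binds YAP at cell junctions and is itself a YAP target, was at 5.40 and 5.33 under DMSO and at 5.34 on both zerumbone arrays. The groups overlapped. Its difference was -0.024 with a 95% interval from -0.19 to 0.14 and an adjusted p of 0.793 in limma. The intervals for CCN2 and AMOTL2 rest on the spread between replicates, which may be purely technical, so they do not bound a change between cultures. AMOTL2 also lay close above background, at 5.33 on DMSO replicate 2 where the percentile was 5.10.

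The DNA before the starts of CCN2 and ANKRD1 is shown because both are textbook TEAD targets, yet only ANKRD1 passed the test. The windows are the 250 bases before the start annotated by RefSeq in GRCh38.p14, both on the minus strand and read 5′ to 3′ along the gene, at chr6:131951373-131951622 for CCN2 and chr10:90921088-90921337 for ANKRD1. Capitals mark matches to the TEAD element GGAATG, sought also as its reverse complement CATTCC, and to the AP-1 pattern TGANTCA, which covers both strands. N stands for any base, so this is a looser pattern than one with a fixed middle base.
CCN2: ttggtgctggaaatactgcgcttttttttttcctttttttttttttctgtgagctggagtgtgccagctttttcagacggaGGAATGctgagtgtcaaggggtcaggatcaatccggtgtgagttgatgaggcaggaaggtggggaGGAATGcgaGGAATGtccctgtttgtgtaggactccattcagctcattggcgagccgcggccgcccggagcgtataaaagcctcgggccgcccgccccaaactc
ANKRD1: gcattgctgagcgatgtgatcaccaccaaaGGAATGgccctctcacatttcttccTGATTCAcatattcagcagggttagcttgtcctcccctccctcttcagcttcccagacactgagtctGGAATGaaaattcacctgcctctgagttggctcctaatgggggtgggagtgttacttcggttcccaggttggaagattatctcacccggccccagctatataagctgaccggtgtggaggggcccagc

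The CCN2 window holds 3 TEAD matches, which begin 169, 104 and 95 bases before the start, and no AP-1 match. The ANKRD1 window holds 2 TEAD matches, at 220 and 128 bases before the start, with a match to the loose AP-1 pattern between them at 195. That match reads TGATTCA, with T at the free middle base. No matches overlapped. Of the 10 genes, 7 had a window in the RefSeq table, with a second start each for WWTR1, TEAD2 and AMOTL2. CCN1, TEAD1 and TEAD4 had none, so the other core target that rose, CCN1, could not be examined. The windows found number 10. A TEAD match was found in 4 of the 10 windows, each of a different gene, the others being YAP1, at 162 bases before the start, and AMOTL2, at 69 bases before its second start. Counted in the same way, per window, 11.9% of 35116 windows of this length over all genes held a TEAD match and 6.57% an AP-1 match. CCN2, ANKRD1 and AMOTL2 were chosen as known targets, so their TEAD matches are no test of an excess among the 10 windows. The SRF CArG box, in 1.16% of windows, was found in 0 of the 10. A match is a description of the letters and does not show a bound site. How the matches relate to the changes was not tested.

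**Figure D3:**
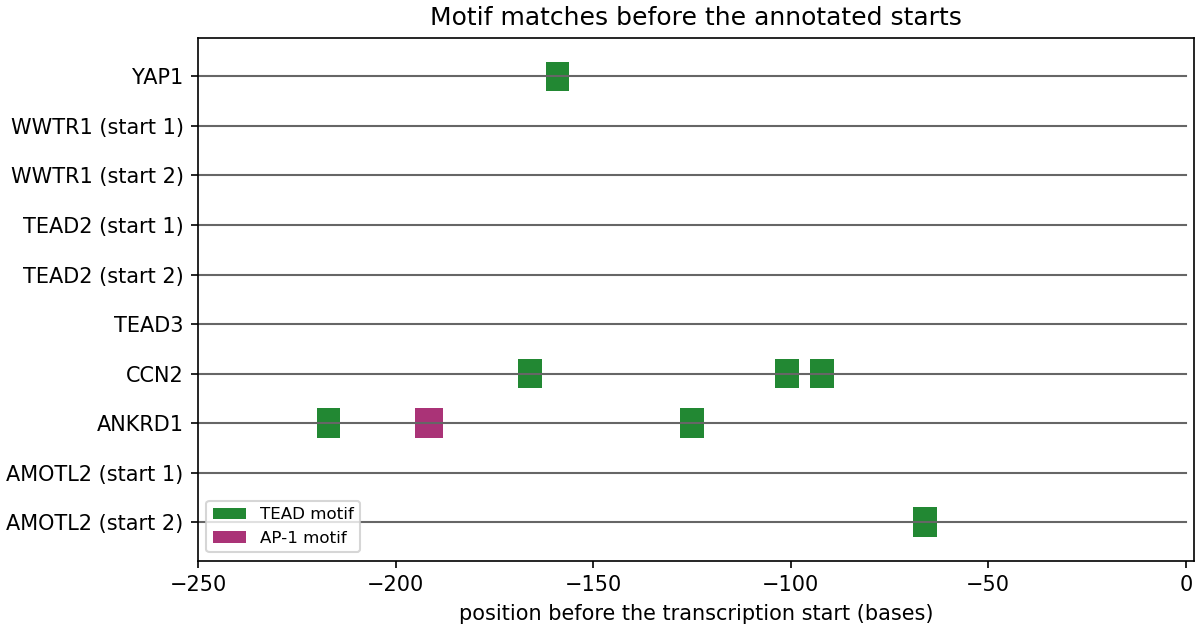
Matches to the TEAD and AP-1 elements (coloured boxes, drawn at their length) in the 250 bases before each annotated start; the horizontal axis is the distance from the start in bases. CCN2 has 3 TEAD matches and ANKRD1 has 2 with an AP-1 match between them, whereas the windows of WWTR1, TEAD2 and TEAD3 hold none.

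Genes whose values run most like those of YAP1 and ANKRD1 were sought among the 11486 other genes not at background level in both groups. The measure was the root mean square distance between log2 values, each centred on the gene's own mean, over the 4 arrays. Nearest to YAP1 were METTL13 at a distance of 0.016, DIPK1A at 0.021 and PDK3 at 0.022, with differences of -1.07, -1.03 and -1.04. PDK3 was at background level under zerumbone, so its distance and difference are only apparent values. Nearest to ANKRD1 were GEM at 0.056, CSGALNACT2 at 0.066 and TM4SF19 at 0.068, with differences of 3.34, 3.41 and 3.28. Since ANKRD1 was at background level under DMSO, its own difference is only bounded, and these distances to its measured values do not settle which genes changed by a like amount. With 2 groups of 2, this measure mostly reflects the size of the difference.

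The kinases and adaptors that restrain YAP were mixed. Of 13 genes in this list 4 rose, 3 fell and 6 did not pass, with a median difference of -0.088. Over all genes tested 18.4% rose and 17.7% fell, and over those not at background level in both groups 30.7% and 33.0%. These shares stand beside the counts of each list below as well. SAV1, the scaffold that links MST to LATS, was at 6.09 and 6.15 under DMSO and at 7.69 and 7.66 under zerumbone, a 2.94-fold rise (adjusted p 9.39e-05 in limma). LATS2, which phosphorylates YAP and TAZ and is itself a YAP target, was at 5.66 and 5.79 under DMSO and at 7.11 and 6.99 under zerumbone. In both genes the zerumbone values lay clear of the DMSO values, and LATS2 rose 2.50-fold (adjusted p 0.000301 in limma). LATS1, its paralog, rose by 0.33, and WWC1 (KIBRA), an upstream scaffold, by 0.46.

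Among the falls, MOB1A, an activating subunit of LATS, went from 12.29 and 12.18 to 11.26 and 11.43, a difference of -0.89 (adjusted p 0.00125 in limma). STK3 (MST2) fell by 0.48 and TAOK1, a kinase upstream of MST, by 0.38. STK4 (MST1) differed by -0.088, MOB1B by 0.12, NF2 (merlin) by -0.12, TAOK2 by 0.084, TAOK3 by -0.12 and MAP4K4 by -0.14, and none of these passed. MAP4K4 did pass, as lower, under cyclic loess, another scaling of the arrays. Paralogs thus differed in whether they passed, MOB1A against MOB1B and STK3 against STK4, but the difference between paralogs was not tested. Without DMSO replicate 1 the list gave 2 rises and 2 falls, since LATS1 (adjusted p 0.143), WWC1 (0.0634) and TAOK1 (0.0971) lost their calls. Without DMSO replicate 2 the counts were again 2 and 2, with adjusted p-values of 0.157, 0.0577 and 0.0563. LATS1 also lost its call without zerumbone replicate 2 (0.0738) and after centring on all transcript clusters (0.113), and TAOK1 without zerumbone replicate 1 (0.0506).

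Of 12 measured genes of junctions and polarity that act on YAP, 2 rose, 2 fell and 8 did not pass, with a median of 0.034. FAT1, an atypical cadherin, went from 14.40 and 14.45 to 11.57 and 11.42, a 7.65-fold fall, and AJUBA, a LIM protein that inhibits LATS, fell by 1.18. FRMD6, a FERM protein that promotes Hippo signalling, rose by 1.55 and TJP1 (ZO-1), a tight junction scaffold, by 1.20. AMOTL1, the paralog of AMOTL2, was at background level in both groups. A further list holds the VGLL cofactors of TEAD together with TP73 and RUNX2. Of its 6 measured genes, VGLL3 fell by 1.04 and RUNX2 passed lower while at background level in both groups. The call of RUNX2 was lost without DMSO replicate 1 (adjusted p 0.198), DMSO replicate 2 (0.165) or zerumbone replicate 2 (0.107). Of the 4 other CCN genes, CCN4 was at 4.61 and 4.65 under DMSO, with 1 of these values above the percentile, and fell to 3.92 and 4.03, which is background level (adjusted p 0.00158 in limma). The other three were at background level throughout.

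Further published targets of YAP and TAZ were tallied in the same fit. Of 23 measured, 13 fell, 3 rose and 7 did not pass, and the median difference was -0.33. This list includes TGFB2, THBS1 and GADD45A, whose changes in these data were already known when the list was written. THBS1 (thrombospondin 1), a secreted glycoprotein, was at 11.37 and 11.35 under DMSO and at 7.11 and 7.03 under zerumbone, a 19.6-fold fall. TGFB2, a growth factor ligand, had a difference of -6.04. EDN1, which encodes the vasoconstrictor endothelin 1, and CAVIN2, a coat protein of caveolae, both dropped to the background level with zerumbone, by at least 6.45-fold and 6.26-fold. BIRC5 (survivin), an inhibitor of apoptosis that also peaks in dividing cells, fell by 1.29.

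The 3 rises were GADD45A (3.35), a stress-induced gene that is also a target of p53 and ATF4, DOCK5 (0.70), an exchange factor for Rac, and NUAK2, a kinase at background level in both groups. GADD45A was at 9.00 and 9.25 under DMSO and at 12.38 and 12.58 under zerumbone, so its direction is that of ANKRD1 and not that of THBS1. Without DMSO replicate 1 the list gave 11 falls and 2 rises and without DMSO replicate 2 it gave 9 and 2. NUAK2 lost its call in both cases, with adjusted p-values of 0.0554 and 0.0911.

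**Figure D4:**
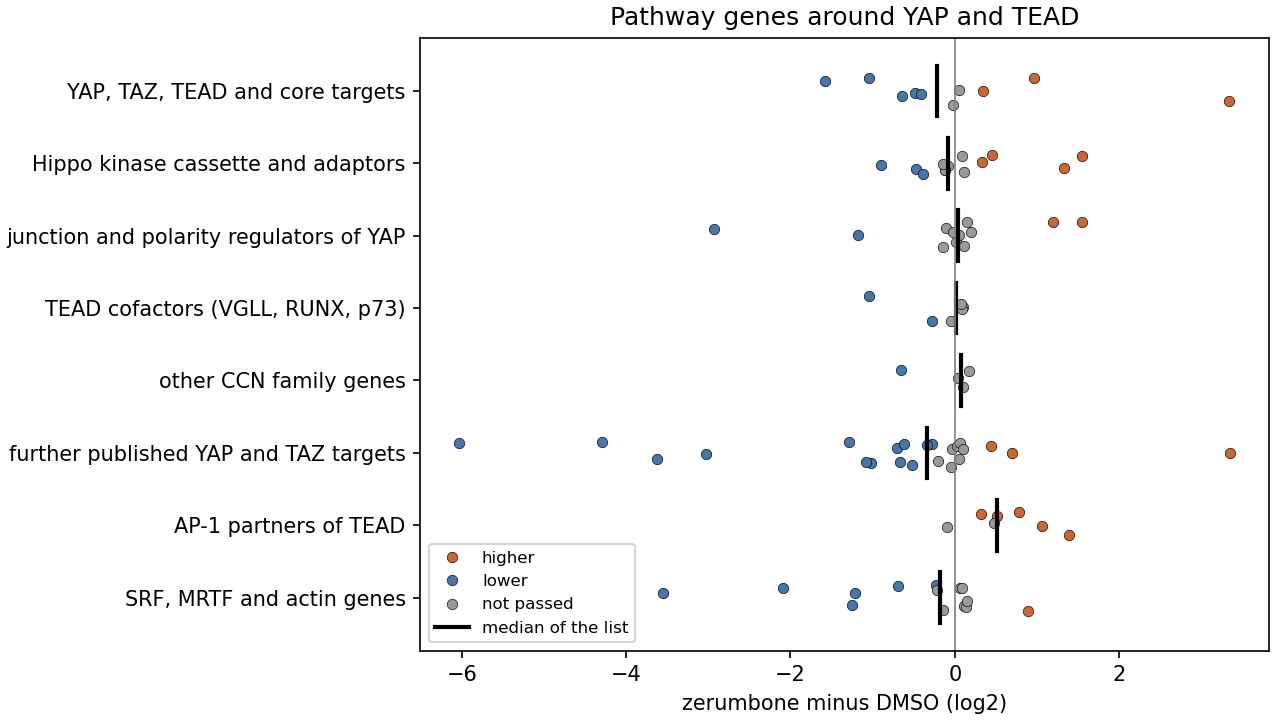
Zerumbone minus DMSO on the log2 scale (horizontal axis) for each measured gene of the 8 groups described, 1 point per gene, coloured by call, with the median of each group as a black bar. Most called points of the further targets lie below 0 and those of the AP-1 genes above 0, and the Hippo kinase genes lie on both sides.

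AP-1 factors bind beside TEAD at many enhancers. Of 7 measured, 5 rose, 0 fell and 2 did not pass, and the median difference was 0.51. Over all genes not at background level in both groups 63.7% passed, 30.7% higher and 33.0% lower. The number of calls by itself thus does not set this list apart. FOSL1 (FRA1) was at 7.49 and 7.62 under DMSO and at 8.88 and 9.00 under zerumbone, a rise of 1.39 (adjusted p 0.000254 in limma). JUN was at 8.46 and 8.65 under DMSO and at 9.49 and 9.73 under zerumbone, a rise of 1.06. JUND rose by 0.32, and FOS rose from background level by at least 1.11-fold. FOSB also passed higher from background level, but its zerumbone values were too near the percentile to give a size. Without DMSO replicate 1 the list gave 2 rises, FOSL1 and JUN, since FOS (adjusted p 0.0692), FOSB (0.0553) and JUND (0.105) lost their calls. Without DMSO replicate 2 it gave 3, with FOS (0.0666) and JUND (0.118) lost. JUND also lost its call without zerumbone replicate 2 (0.0571) and after centring on all transcript clusters (0.0767).

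SRF with its MRTF coactivators drives many of the same cytoskeletal and CCN genes as YAP. Of 14 measured genes in a list on SRF, MRTF and actin, 6 fell, 1 rose and 7 did not pass, with a median of -0.18. Of all genes tested 36.0% passed, and of those not at background level in both groups 63.7%. MRTFB, one of the coactivators, went from 9.92 on both DMSO arrays to 6.26 and 6.47, an 11.8-fold fall, whereas MRTFA differed by 0.11 and SRF by -0.22 without passing. SRF did pass, as lower, with dim genes left out and after centring on all transcript clusters (adjusted p 0.0424 in limma). CNN2 (calponin 2), an actin-binding protein, fell by 2.09, TPM1 (tropomyosin 1) by 1.22 and VCL (vinculin) by 0.69. TGFB1, a growth factor ligand that the list also holds, fell by 1.25. FHL2, a LIM-domain cofactor, was the 1 gene that rose, by 0.89.

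The labelled cell type was checked against markers. Of 8 measured hepatocyte markers 7 lay at background level with and without zerumbone and ALB did so under DMSO, and none passed. Of 5 epithelial markers 4 fell and EPCAM was at background level with and without zerumbone. KRT8 was at 15.91 and 15.84 and KRT18 at 15.10 and 14.98 under DMSO, and the differences were -1.31 for KRT8, -0.75 for KRT18, -1.66 for KRT19 and -0.48 for CDH1. Of markers of other cell types, 3 of 4 leukocyte, 4 of 5 endothelial and 3 of 5 fibroblast or stellate genes lay at background level with and without zerumbone. The exceptions were CD68, which rose by 0.93, and KDR, LUM and DCN, with differences of -1.93, -1.22 and -0.32. DCN was at background level under zerumbone, so its difference is only an apparent value. The part of these exceptions in the results was not tested. PTPRC, CDH5 and COL1A1 were among the genes at background level throughout, whereas CD68, KDR and LUM lay above background on all arrays. In a bulk sample, fewer cells and less RNA of a gene per cell cannot be told apart. Replicate arrays correlated across genes with a Pearson's r of 0.999 (DMSO) and 0.998 (zerumbone), against 0.968 to 0.969 for arrays of different groups. The array titles are numbered group by group, so an order of processing that followed them cannot be told apart from the treatment.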

How the data were processed

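RNA from 2 DMSO and 2 zerumbone samples was measured on 1 array each. Per the submitters' processing notes, the authors used the Affymetrix Expression Console with RMA to make the deposited log2 values, and versions and a genome build are not given in the sources used here. The values reach 19.9, higher than is usual for the log2 of a scanner's intensities, so a later step may have changed the scale, and folds hold on the deposited scale. RMA is meant to equalise the distributions of the arrays, so a shift of all transcripts would not be seen. The array medians over all transcript clusters still differed. They were 3.859 and 3.835 on DMSO replicates 1 and 2, and 3.955 and 3.916 on zerumbone replicates 1 and 2. Groups came from the source labels, and replicates were numbered in the order of deposit.

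Of 70523 rows, 67528 are transcript clusters, and 23781 of these carry 1 symbol. Keeping the brightest row of each symbol, by its mean over all arrays, left 22465 genes. A two-sided limma fit (version 3.58.1, lmFit then eBayes; R 4.3.3) was adjusted by Benjamini-Hochberg, on 2 residual and 2.88 prior degrees of freedom. The steps were tested on simulated data. Array annotation was used as given, with names updated through gene identifiers. Plots used matplotlib 3.10.9 under Python 3.11.15.

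The 10 genes and the gene lists were chosen with earlier results of these data known, so list counts are descriptions without a test. Of 84 further list genes 79 were measured. Named genes are the 10, all Hippo kinase genes, up to 6 called genes of each other list with the largest difference, the genes behind any count of 5 or fewer (such as DOCK5 and NUAK2), and the 3 nearest in pattern to YAP1 and ANKRD1. AMOTL1, MRTFA, SRF and the marker genes named are outside that rule and were chosen with their values known. Alternatives were other scalings, a filter on dim genes, the mean of a gene's rows, another variance model, adjustment over all transcript clusters, and leaving out each array. The motif windows are RefSeq's, in GRCh38.p14.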

Additional observations from a re-analysis of the deposited data

Results flagged for a closer look

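The rows of background probes, which the comparison of genes does not use, also differed between the groups. Their median zerumbone minus DMSO difference was 0.0785 on the log2 scale, 22 of 23 were higher under zerumbone, and the range was from -0.023 to 0.63. Of the 10 genes, TEAD3, CCN1 and ANKRD1 had DMSO values near or under that background, and AMOTL2 lay close above it on DMSO replicate 2. Groups of 2 arrays are too small to look for an outlying array, and the study has 1 contrast.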

How the results depend on the processing

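YAP1, WWTR1, TEAD1, TEAD2, CCN1 and ANKRD1 kept their direction and their call under each of the 11 alternatives, and the exceptions among the 8 called genes were TEAD3 and TEAD4, whose values stand beside their results. CCN2 turned to -0.012 without zerumbone replicate 2 (lowest and highest over the left-out arrays -0.012 and 0.11) and to -0.038 after centring each array on its median over all transcript clusters, an alternative added after seeing the data. AMOTL2 turned to 0.0079 without DMSO replicate 1 (range over the left-out arrays from -0.057 to 0.0079). Neither passed in any alternative, and the cause was not tested. Of the 10 genes, between 2 and 3 rose and between 4 and 5 fell. Of all genes, between 2557 and 3822 rose and between 2854 and 3642 fell with 1 array left out, against 4125 and 3966, and the lowest rises, 2557 and 2687, came without DMSO replicates 1 and 2, and the cause was not tested. No paired analysis was possible because the labels carry no replicate numbers that tie an array of one group to an array of the other. Signal near background limits TEAD3, CCN1, AMOTL2, the zerumbone level of TEAD4 and the DMSO level of ANKRD1.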

Other observations

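AMOTL2 had the same deposited value, 5.3414, on both zerumbone arrays. Of 22465 genes, 51 (0.227%) had values on both zerumbone arrays that were identical in every deposited digit, with no tolerance, and 70 had such values on both DMSO arrays.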
